A study of Mus musculus with 6 samples.

Results

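The 38 genes described here serve the uptake and breakdown of thyroglobulin and the lysosome in general, in mouse thyroid with and without the transcription factor Foxe1. They were taken from a list of uptake receptors, cathepsins, aspartic proteases and other lysosomal genes, and all 38 were found among the 19505 genes named on the array, each through 1 of its 22206 probe sets. RNA came from 1 thyroid lobe of each of 6 mice of C57BL/6J background, 3 labelled Foxe1flox/flox/Cre, called knockouts here, and 3 labelled Cre control. All 6, controls included, carried Cre and were given tamoxifen by injection at 6 to 8 weeks of age, at 0.05 g/kg on each of 5 days, and glands were collected 2 weeks after treatment. No source used here names the promoter or cell type that drives Cre. Nothing in the labels says more of how the 6 animals were raised, so p-values measure the spread between these samples. The question asked of these genes is whether Napsa, a lysosomal aspartic protease gene, moved alone or with the rest of the breakdown machinery.

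Thyroid hormone is stored in the follicle lumen as part of thyroglobulin. The follicular cell takes this protein up at its apical surface, carries it through endosomes to lysosomes, and there cathepsins and exopeptidases cut out the hormone, while a proton pump in the membrane keeps the compartment acid. Transcription factor EB, encoded by Tfeb, switches on many lysosomal genes together through an E-box with the core CACGTG.

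Values are log2 intensities, so a difference of 1 is a doubling, and differences are knockout minus control. Array medians lay between 5.62 and 5.69, and lower quartiles between 3.49 and 3.60. Values near or under that quartile cannot be told from background. Foxe1 checked the labels, with 7.60, 7.19 and 7.04 in controls 1 to 3 and 3.33, 2.88 and 3.04 in knockouts 1 to 3, and fell by 4.19 (SE 0.22, limma adjusted p = 0.000442). The knockout readings are under the lower quartile, so this difference is likely to understate the fall. The number of arrays, 3 per group, limits precision, and since RNA was taken from whole lobes, fewer cells of a type and less RNA per cell cannot be told apart. Thyroglobulin itself, which defines the tissue, read 19.26, 18.93 and 18.67 across controls and 19.27, 18.94 and 18.78 across knockouts (difference 0.04, 95% interval -0.47 to 0.55). These readings lie near the top of the arrays' range, and whether the probe set could still show a rise there was not tested.

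E-boxes are shown first, because they are the sequence by which lysosomal genes are known to be joined. RefSeq promoter windows of build GRCm38.p6 were at hand for 30 of the 38 members. The members with no entry were Ctsb, Ctsh, Ctsw, Ctse, Napsa, Cpq, Atp6v1h and Npc1. In the 250 bases upstream of a start, CACGTG, which reads the same on both strands, occurred for 10 of the 30, which is 33.3%, where 6.86% of all 27025 genes in the table had it. The longer TCACGTGA, which contains it, occurred for 6 of the 30, against 0.907% of all genes. The forkhead core GTAAACA, searched on both strands, was in none of the 30 members' windows and in those of 3.54% of all genes. Of the windows printed, that of Lamp1 holds the most copies of the E-box among members, and Rab5a and Mcoln1 are the members with the E-box in which every knockout lay above every control. In Ctsf, which also has the E-box, every knockout lay below every control. The windows are chr8:13158911-13159160 for Lamp1, chr17:53478984-53479233 for Rab5a and chr8:3500269-3500518 for Mcoln1, all on the plus strand and read 5′ to 3′ towards the start, with CACGTG in capitals.
Lamp1: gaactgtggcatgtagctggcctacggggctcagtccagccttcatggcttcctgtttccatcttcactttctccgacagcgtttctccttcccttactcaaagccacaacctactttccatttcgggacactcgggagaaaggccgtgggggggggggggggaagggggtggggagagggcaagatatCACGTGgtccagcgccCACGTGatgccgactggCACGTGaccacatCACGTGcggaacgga
Rab5a: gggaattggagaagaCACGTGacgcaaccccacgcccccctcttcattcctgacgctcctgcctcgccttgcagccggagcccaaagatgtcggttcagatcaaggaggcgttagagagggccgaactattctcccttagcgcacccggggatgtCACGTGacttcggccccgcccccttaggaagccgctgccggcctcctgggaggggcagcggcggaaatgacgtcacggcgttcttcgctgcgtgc
Mcoln1: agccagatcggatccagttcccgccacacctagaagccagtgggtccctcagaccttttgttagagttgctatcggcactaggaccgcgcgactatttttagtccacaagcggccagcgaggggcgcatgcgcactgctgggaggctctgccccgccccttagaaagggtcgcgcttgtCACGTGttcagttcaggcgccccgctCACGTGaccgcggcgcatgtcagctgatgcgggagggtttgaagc
Lamp1 has 4 copies, all within 61 bases of the start. Rab5a has 2, beginning 235 and 95 bases upstream, and Mcoln1 has 2, beginning 71 and 45 bases upstream. The 10 members with the core had a median difference of -0.03, from -0.30 to 0.61, and the 20 without it a median of 0.00. The 6 with the longer TCACGTGA had a median of 0.23, from -0.11 to 0.61, and the 24 without it a median of -0.07. None of these medians was tested against another. Members with the E-box letters were thus found on both sides of 0, and these matches describe the letters only.

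Napsa was the single member past the threshold. Of the 38 members, 1 had an adjusted p under 0.05 (limma, adjusted over all 22206 probe sets), where 0.338% of all probe sets did so, and 0.252% did so upward. No member passed downward, where 0.0856% of all probe sets did. A difference of at least 1 in either direction was seen for 2 members, Napsa and Asgr1, against 3.88% of all probe sets. The median difference over the 38 members was 0.06, with 22 positive and 16 negative, and over all probe sets it was -0.02 with 46.3% positive. At an unadjusted p under 0.05, 4 members were higher and 2 lower, which is 15.8% of members against 12.7% of all probe sets. In 8 of the 38, or 21.1%, the 3 knockout arrays all lay on one side of the 3 controls, 4 above and 4 below, against 18.1% of all probe sets. The typical size of a member's difference, a median of 0.23 without regard to sign, was also close to that of all probe sets, 0.21.

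**Figure D1:**
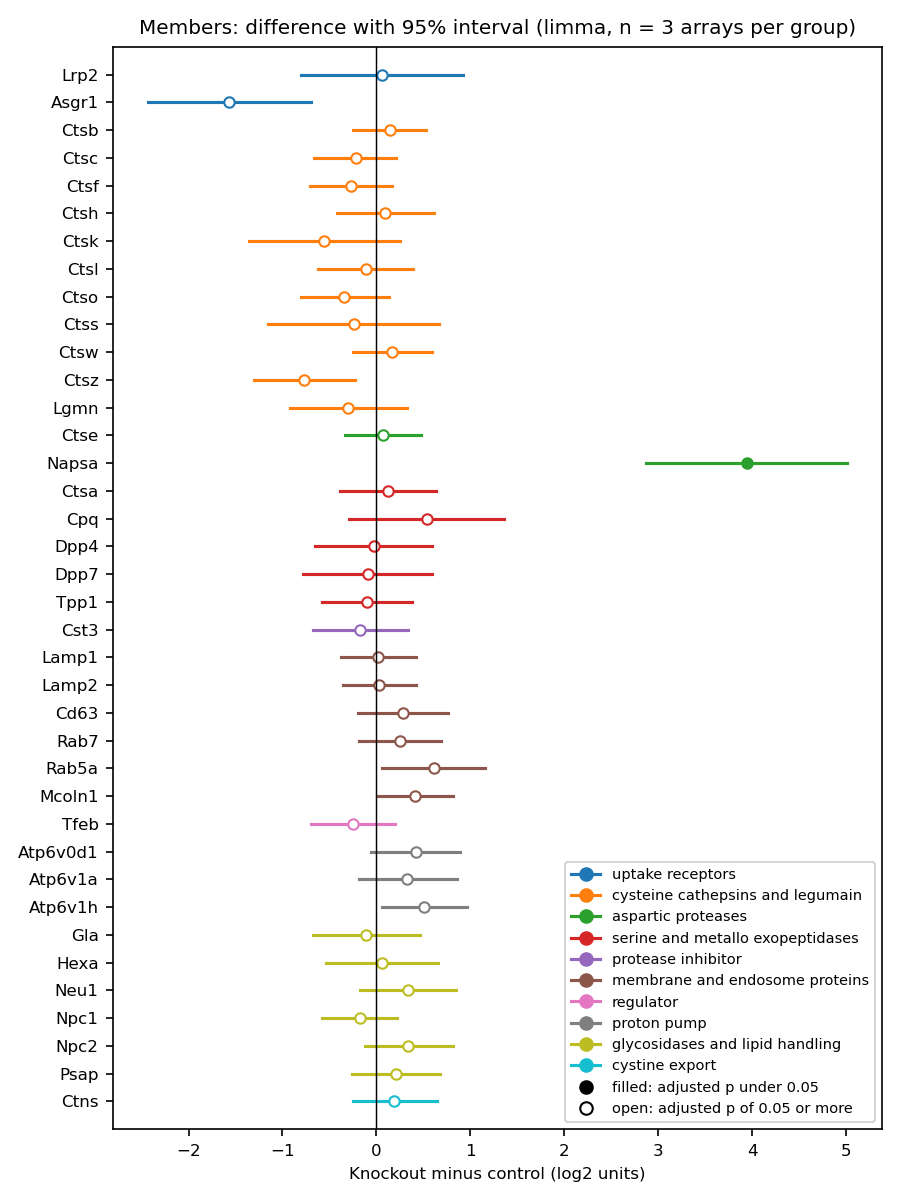
Difference of each of the 38 members between knockout and control (log2 units, point) with its 95% interval from limma (bar, n = 3 arrays per group), coloured by role and filled where the adjusted p is under 0.05. Napsa stands at 3.94 with an interval from 2.87 to 5.01, and the upper limit of every other member is at 1.36 or less.

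Napsa, which encodes napsin A, an aspartic protease best known from lung alveolar and kidney tubule cells, read 11.67, 11.46 and 9.71 across controls. Knockout readings were 15.25, 14.75 and 14.66. Every knockout array was therefore at least 2.99 above every control array, and the knockouts lay close together while control 3 was 1.75 below the next control. The means were 10.95 ± 1.08 and 14.89 ± 0.32 (SD, n = 3 each), and the rise was 3.94 (SE 0.47, limma adjusted p = 0.025), a 15.3-fold difference. The difference was 3.32 without control 3 (adjusted p = 0.0127) and 4.30 without control 1 (adjusted p = 0.0404). It no longer passed without control 2 (4.20, adjusted p = 0.0631), knockout 1 (3.76, adjusted p = 0.0989), knockout 2 (4.01, adjusted p = 0.071) or knockout 3 (4.05, adjusted p = 0.0854), although its size lay between 3.76 and 4.20. In fits chosen after the data were seen, it was 4.42 without control 1 and knockout 3 together, the arrays with little signal from Y-linked genes (adjusted p = 0.0994), and 4.09 with the parathyroid genes Pth, Casr and Chga as a covariate (adjusted p = 0.229).

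None of the other 37 members had an interval that reached that of Napsa. The nearest by value was Rab5a, whose difference was 3.33 smaller, and the farthest Asgr1, 5.51 smaller. The highest upper 95% limit among the 37 was 1.36, for Cpq, and the lowest lower limit was -2.43, for Asgr1. For 31 of the 37 both limits lay within 1 log2 unit of 0, so a doubling in either direction was outside the interval for them, while the intervals of the other 6 reached that size. The 31 include Ctse and Ctsw, which read under the lower quartile of every array, so their narrow intervals say little. The intervals are those of single genes and were not widened for their number. Whether Napsa differed from each of the other members was not tested beyond these intervals.

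**Figure D2:**
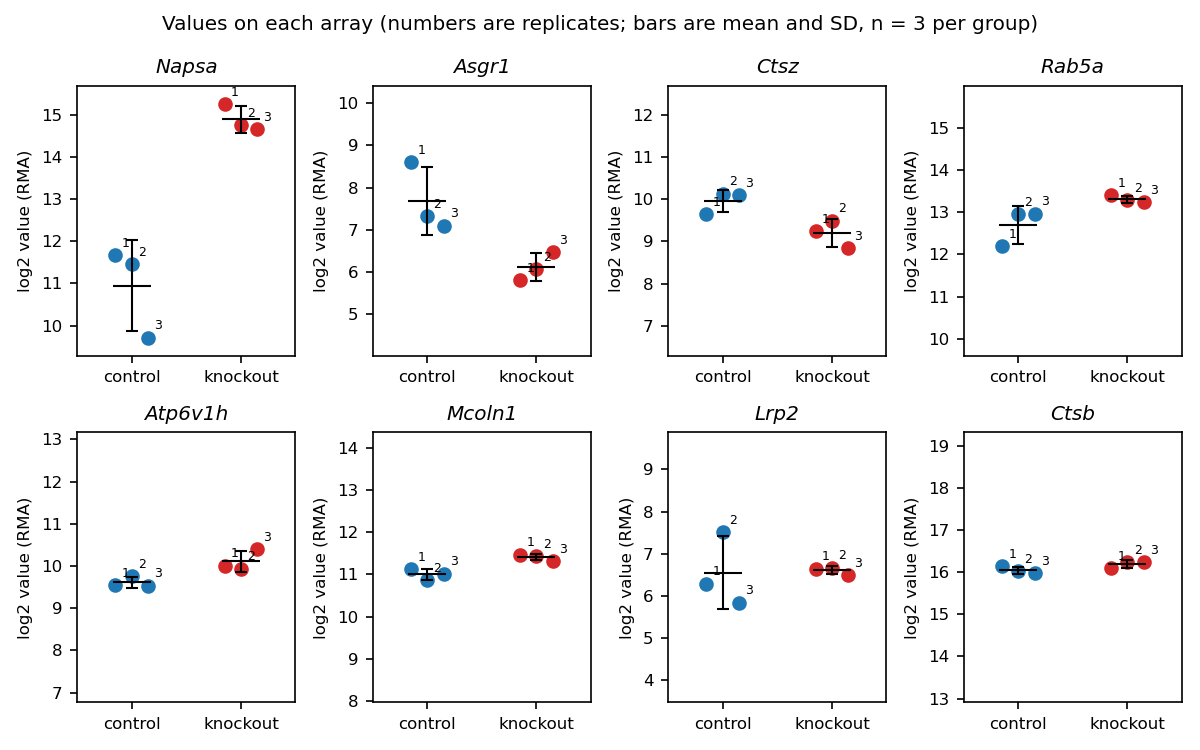
Log2 value on each array for 8 members, all panels spanning the same range in log2 units, with replicate numbers beside the points and the mean and SD of each group (n = 3) as bars. The Napsa groups are 2.99 apart at their nearest arrays, those of Asgr1, Ctsz, Rab5a, Atp6v1h and Mcoln1 are separated by less, and those of Lrp2 and Ctsb overlap.

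No other aspartic protease gene that was measured passed the threshold. Ctsd, cathepsin D, the main aspartic protease of lysosomes, was not analysed here, so whether Napsa moved alone in its class cannot be said for it. Ctse, cathepsin E, an endosomal aspartic protease of stomach and immune cells, read 2.62, 2.89 and 2.82 across controls and 2.82, 2.82 and 2.90 across knockouts. The 6 stomach markers, 2 with positive and 4 with negative differences, summed to 148 to 220 in controls and 106 to 130 in knockouts. Tff1, the brightest of them, differed by -1.21, and 3 of the 6 stayed under the lower quartile on every array. All 6 Ctse readings are under the lower quartile of the arrays, so this gene was not measured above background in either group and its difference of 0.07 (adjusted p = 0.916) says little. Of 10 further aspartic protease genes listed, 7 were measured, and none passed the threshold (limma, with 1 higher and 1 lower at an unadjusted p under 0.05). These are 28.6% of the 7, against 12.7% of all probe sets. The groups did not overlap for 57.1%, 2 above and 2 below, against 18.1% of all probe sets. Bace2, a membrane-bound protease of the secretory pathway, differed by -0.80 (adjusted p = 0.124), with all knockouts below all controls. Asprv1, a protease of the outer epidermis, differed by 1.01 (adjusted p = 0.208), with all knockouts above all controls. Squamous transcripts were high in both groups, and the summed linear level of 7 squamous markers was 1854115 to 1927683 in the controls and 2177524 to 2472880 in the knockouts. These markers did not move evenly. Sprr3 differed by 1.15 and Dsc3 by 1.10, but Trp63 by 0.31, Krt13 by 0.16, Krt5 by 0.09, Krt4 by 0.02 and Krt14 by -0.45. The part of squamous tissue in the Asprv1 value was not tested.

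Markers of cells known for napsin A gave no call. Of 10 alveolar type 2 markers all were measured, 4 with positive and 5 with negative differences, 1 at 0 and none past the threshold. Their summed linear level, which Etv5 and Abca3 dominate, was lower in every knockout (2326 to 3410) than in any control (3640 to 4531). Of this pair, Etv5 was lower in every knockout, while Abca3 differed by 0.33 with every knockout above every control. The surfactant gene Sftpb read from 3.45 to 3.97 over the 6 arrays and Sftpc from 3.66 to 5.52, which is near or somewhat above the lower quartile. The 3 markers with the smallest p did not share a direction. Etv5, a transcription factor, differed by -1.17 (limma adjusted p = 0.0928) and the surfactant protein gene Sftpd by -1.40 (adjusted p = 0.124), both with all knockouts below all controls, and the phosphate transporter Slc34a2 differed by 1.60 (adjusted p = 0.0969) with all knockouts above. The 7 kidney proximal tubule markers summed to 65 to 70.8 in controls and 61.4 to 83.2 in knockouts, and 4 of them stayed under the lower quartile on every array. Thyroid follicular markers had positive differences beside Napsa. The 8 of 10 that were measured were all positive, with a median of 1.31 and none past the threshold. The largest difference was that of Slc5a5, 4.83 (limma adjusted p = 0.14), which exceeded the 3.94 of Napsa. Slc5a5 read 8.00, 8.00 and 2.97 across controls and 11.50, 10.34 and 11.61 across knockouts. Tshr, Pax8, Iyd and Duox1 also had all knockouts above all controls, while Tg, Nkx2-1 and Dio1 overlapped. The mean log2 value of the 8 was 10.17, 9.96 and 8.37 across controls and 11.27, 10.78 and 11.32 across knockouts, so control 3 was lowest for these as for Napsa. Their summed linear level, which Tg dominates, was 419528 to 636418 in the controls and 471102 to 655588 in the knockouts. Parathyroid markers, 3 measured of 4, summed to 142746 to 1054330 in controls and 417 to 438190 in knockouts. The part of follicular or parathyroid content in the Napsa difference was not tested further. Of the measured protein-coding genes next to Napsa in RefSeq order, most were near background. Spib read 2.49 to 3.14, Pold1 2.91 to 3.64 and Izumo2 3.15 to 4.09 over the 6 arrays, so their differences say little. Myh14, a nonmuscle myosin heavy chain gene, read 8.66, 7.80 and 8.45 in controls against 7.57, 7.09 and 7.59, a difference of -0.89 (adjusted p = 0.202).

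Of both uptake receptors, Asgr1 had lower values in the knockouts and Lrp2 had similar ones. Lrp2 encodes megalin, the apical receptor known to carry thyroglobulin across the cell, and read 6.29, 7.51 and 5.84 across controls and 6.65, 6.67 and 6.50 across knockouts. The knockouts lay inside the spread of the controls, with a difference of 0.06 (95% interval -0.80 to 0.92) that ran from -0.29 without control 3 to 0.54 without control 2. Asgr1, a subunit of the asialoglycoprotein receptor, which binds glycoproteins that lack terminal sialic acid, read 8.61, 7.33 and 7.10 across controls and 5.81, 6.06 and 6.47 across knockouts. All knockouts were below all controls, the highest control being control 1. The difference was -1.57 (SE 0.38, 95% interval -2.43 to -0.70), which did not pass over all probe sets (limma adjusted p = 0.14). It was -1.10 without control 1 and -1.86 without control 3. With Y-linked signal as a covariate it was -1.56, just short of the threshold (limma adjusted p = 0.0544). Control 1 and knockout 3, each the highest array of its group, are those with little Y-linked signal. Without both, the Asgr1 difference was -1.28 (limma adjusted p = 0.141). Its partner subunit Asgr2 read 3.38 to 3.76 over all 6 arrays, near the lower quartile, with a difference of 0.07. Of the 11 other genes listed for thyroglobulin uptake and hormone release 10 were measured and none passed (limma, with 1 higher and 1 lower at an unadjusted p under 0.05). Iyd, which recovers iodide from the freed iodotyrosines, had the smallest p, with a difference of 2.10 (adjusted p = 0.136), and Slc16a10, a transporter of aromatic amino acids and thyroid hormone, followed with -0.74 (adjusted p = 0.183). Iyd too was lowest in control 3.

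The cysteine cathepsins and legumain, which do most of the first cutting of thyroglobulin, had small differences, more of them negative. Of 11 genes 8 were negative and 3 positive, with a median of -0.24 and none past the threshold (limma, with 1 lower at an unadjusted p under 0.05). The median was -0.14 without knockout 3 and -0.34 without control 1. Ctsb, cathepsin B, read 16.14, 16.02 and 15.98 across controls and 16.09, 16.24 and 16.24 across knockouts. These groups overlapped and the interval of the difference, -0.25 to 0.53, is narrow. Ctsl, cathepsin L, read 11.80, 12.36 and 11.77 against 12.06, 11.69 and 11.84, with control 2 the highest of all. Its difference was -0.11 (95% interval -0.62 to 0.39). Lgmn, the asparaginyl endopeptidase legumain, read 12.26, 13.20 and 12.62 against 12.68, 12.43 and 12.08, a difference of -0.30 that was -0.04 without control 2.

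Ctsz, cathepsin Z, a carboxypeptidase abundant in macrophages, was the member of this class with separated groups and the largest difference. It read 9.65, 10.13 and 10.10 across controls and 9.25, 9.49 and 8.84 across knockouts, so all knockouts lay below all controls and knockout 3 was the lowest array. The difference was -0.77 (SE 0.23, adjusted p = 0.213), between -0.92 and -0.59 when any 1 array was left out. Ctss, cathepsin S of antigen-presenting cells, read 8.44, 8.82 and 9.30 against 9.29, 8.87 and 7.69. Its difference was -0.24 with all arrays and 0.23 without knockout 3. Ctsk, cathepsin K, which cleaves collagen and is also known to act on thyroglobulin, read 6.53, 7.37 and 8.01 against 7.08, 6.67 and 6.49. The groups overlapped, and the difference was -0.56 (95% interval -1.36 to 0.25), -0.20 without control 3 and -0.94 without control 1.

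By mean log2 value, though not by summed level, macrophage markers were lowest in knockout 3, as were Ctss and Ctsz. Of 12 listed, 11 were measured and all 11 had negative differences, with a median of -0.39 and none past the threshold. Their mean log2 value was 8.25, 8.43 and 8.64 across controls and 8.41, 8.07 and 7.62 across knockouts, lowest in knockout 3. Knockout 1 lay above control 1 in this mean, while for Ctsz it lay below every control. The summed linear level of the macrophage markers, which Lyz2 dominates, was 278472 to 482278 in the controls. Across knockouts this sum was 293175, 210800 and 222343, lowest in knockout 2. Fibroblast markers, of which 6 were measured and all 6 were negative, had mean log2 values of 11.50, 12.02 and 12.59 against 12.20, 11.43 and 10.39, and were lowest in knockout 3 and highest in control 3, as was Ctsk. The part of either cell type in these cathepsin values was not tested.

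The remaining cysteine cathepsins had differences from -0.34 to 0.17. Ctsc, which activates granule proteases in immune cells, differed by -0.22, Ctsh, an aminopeptidase, by 0.09, Ctso by -0.34 and Ctsf by -0.27. Ctsf had all knockouts below all controls with an adjusted p of 0.619. Ctsw, cathepsin W of cytotoxic lymphocytes, differed by 0.17 at readings of 2.96 to 3.46, under the lower quartile of every array. The 9 T and NK cell markers had a summed linear level of 140 to 181 in controls and 134 to 145 in knockouts.

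The exopeptidases, which finish the release of hormone and free amino acids, showed no separation of the groups in any of 5 genes. Their median difference was -0.03. Over all probe sets 18.1% had groups that did not overlap, so its absence among 5 genes says little. Dpp4, a cell surface peptidase that removes dipeptides from the amino end of peptides, read 6.86, 6.58 and 7.56 against 7.15, 6.73 and 7.03, a difference of -0.03 (95% interval -0.65 to 0.59). Cpq, a carboxypeptidase known to be secreted and to act on small peptides, had the largest value of the class. It read 12.90, 13.08 and 11.57 across controls and 13.14, 13.07 and 12.95 across knockouts, so that control 3 alone was low. The difference of 0.54 (adjusted p = 0.598) came down to 0.06 without that array. Ctsa, the protective protein of the sialidase complex, differed by 0.12, Dpp7 by -0.09 and Tpp1, which trims tripeptides, by -0.10. Cst3, cystatin C, the secreted inhibitor of cysteine cathepsins, read 15.43, 15.38 and 15.46 against 15.56, 15.38 and 14.82. Its difference of -0.17 was carried by knockout 3 and was 0.05 without it.

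Of 10 other cathepsin and serine protease inhibitors listed, 9 were measured and none passed the threshold (limma, with 2 higher at an unadjusted p under 0.05). All 9 differences were positive, with a median of 0.33, but the signs of several say little, since, for example, Cst7 read 2.68 to 3.44, Serpinb13 3.16 to 3.92 and Stfa2 3.77 to 4.45 over the 6 arrays, at or near the lower quartile. Cst6, cystatin E/M of epidermis, differed by 1.01 (adjusted p = 0.176) and Cstb, the intracellular inhibitor cystatin B, by 0.68 (adjusted p = 0.226). Both had all knockouts above all controls and were highest in knockout 3, the array in which the squamous markers summed to their highest level, 2472880.

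**Figure D3:**
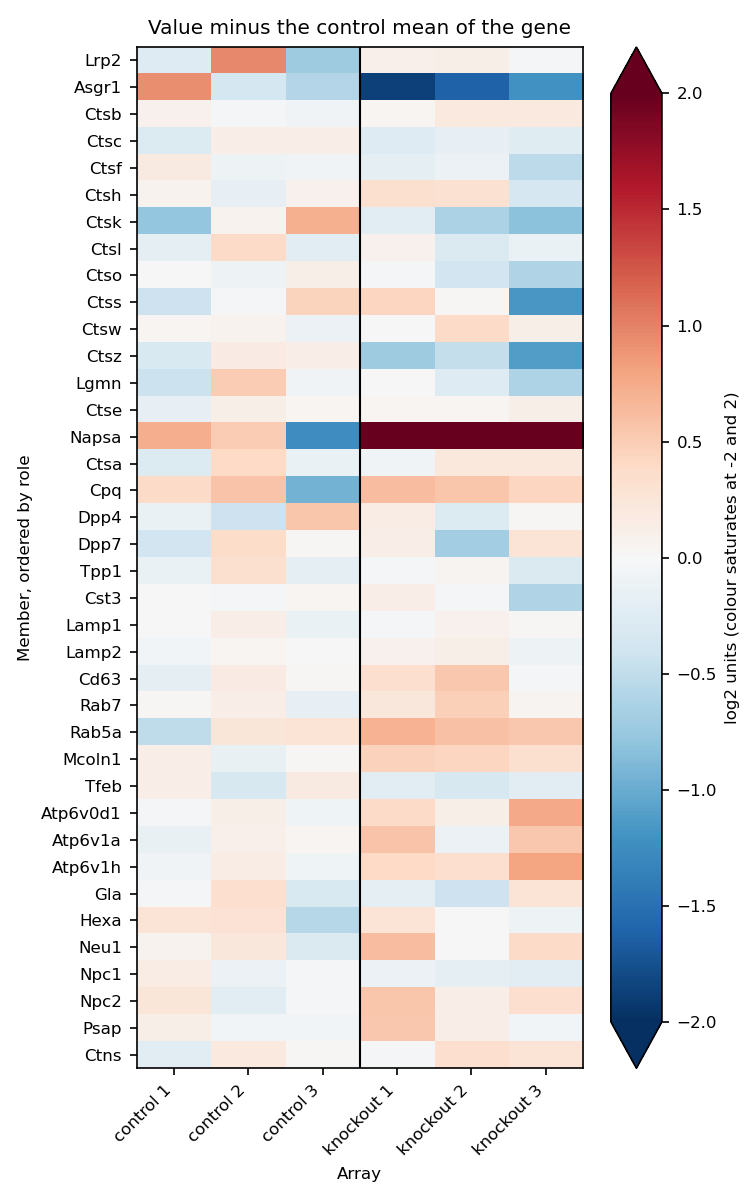
Value of each of the 38 members on each of the 6 arrays minus the mean of its 3 controls (log2 units, colour, saturating at -2 and 2), in order of role. Napsa and Asgr1 stand out across all 3 knockouts, control 3 is low for Napsa, Cpq and Hexa, and knockout 3 is low for Ctss, Ctsz and Cst3.

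Genes of the endosomal and lysosomal membrane had small differences, positive for all of them when all arrays were used. The 6 genes had a median of 0.27 and none passed (limma, with 2 higher at an unadjusted p under 0.05). Without knockout 2 the median was 0.15, with 4 positive and 2 negative, and without knockout 3 it was 0.39. Rab5a, the GTPase of early endosomes, which receive thyroglobulin first, read 12.19, 12.95 and 12.97 across controls and 13.40, 13.29 and 13.24 across knockouts. The knockouts were all higher and close together, and control 1 was the lowest array. The difference was 0.61 (SE 0.24, adjusted p = 0.338), and 0.35 without control 1. Mcoln1, the calcium channel mucolipin 1 of the lysosomal membrane, read 11.13, 10.86 and 11.02 against 11.47, 11.44 and 11.32, with no overlap. The difference was 0.41 (SE 0.18, adjusted p = 0.386), and between 0.34 and 0.47 when 1 array was left out. Lamp1, the abundant glycoprotein that coats the lysosome's inner face, read 14.73, 14.85 and 14.58 against 14.68, 14.80 and 14.74. Its groups overlapped fully, with a difference of 0.02 (95% interval -0.38 to 0.42), and Lamp2, its relative, differed by 0.03 (-0.36 to 0.42). Cd63 differed by 0.28 and Rab7, the GTPase of late endosomes, by 0.25, both with overlapping groups. The 4 E-boxes upstream of Lamp1 and the 2 each of Rab5a and Mcoln1 thus belong to genes with differences of 0.02, 0.61 and 0.41.

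Tfeb, the regulator known to act on that E-box, read 5.88, 5.44 and 5.94 across controls and 5.52, 5.44 and 5.54 across knockouts. The knockouts lay within or at the edge of the control range, and the difference was -0.25 (95% interval -0.70 to 0.20, adjusted p = 0.66). TFEB is known to be controlled mainly by its entry into the nucleus, which these arrays do not measure. Of 18 genes for its relatives and for nutrient sensing at the lysosome, all measured, none passed the threshold (limma, with 1 higher and 3 lower at an unadjusted p under 0.05), and their median difference was -0.10. Fnip2, a partner of folliculin in that pathway, differed by 1.00 (adjusted p = 0.136) and Mitf, a factor of the same family as TFEB, by -0.79 (adjusted p = 0.328).

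The proton pump genes had mostly positive differences, and 1 isoform had a larger negative one. The 3 members were Atp6v1h, Atp6v0d1 and Atp6v1a, which encode parts of the soluble and membrane sectors of the vacuolar ATPase. Atp6v1h read 9.54, 9.76 and 9.53 across controls and 10.01, 9.94 and 10.40 across knockouts, with no overlap and a difference of 0.51 (SE 0.20, adjusted p = 0.327). Atp6v0d1 read 12.03, 12.19 and 11.99 against 12.45, 12.19 and 12.82, and Atp6v1a read 10.39, 10.63 and 10.58 against 11.11, 10.41 and 11.08. In both, knockout 2 fell within or at the edge of the control range, and the differences were 0.42 and 0.33. Taking these with the 15 measured of 16 further subunits and accessory proteins, 14 of 18 differences were positive, with a median of 0.42. None passed the threshold (limma), and at an unadjusted p under 0.05 there were 7 higher and 1 lower, where 6.61% and 6.13% of all probe sets were so. The 3 knockouts lay above the 3 controls in 9 of the 18, where 9.28% of all probe sets did so.

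Among these 15, the smallest p belonged to Atp6v0d2 and Atp6v0e. Atp6v0d2, an isoform of Atp6v0d1 found in osteoclasts, macrophages and some epithelia, read 6.87, 7.33 and 5.97 across controls and 5.17, 4.78 and 4.82 across knockouts. The groups did not overlap and the difference was -1.80 (SE 0.33, adjusted p = 0.0709), against the 0.42 of Atp6v0d1. Atp6v0e, a small subunit of the membrane sector, read 9.76, 9.38 and 9.57 against 10.81, 10.50 and 10.41, a difference of 1.00 (SE 0.20, adjusted p = 0.0832). Knockout 3 was the highest knockout for 14 of the 18 genes, and without it the median was 0.29 with 13 positive. Squamous markers had their highest sum in the same array, 2472880, and the 6 skeletal muscle markers, all with negative differences, their lowest, 1516491, against 2166673 to 2314955 in controls and 2079008 and 2093711 in the other knockouts. The part of either tissue in the pump values was not tested. Airway markers were lower in the knockouts, with all 7 measured of 8 negative and a summed linear level of 2442368 to 3132167 in the controls and 1408924 to 1606343 in the knockouts. The part of airway tissue or macrophages in the Atp6v0d2 value was not tested.

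**Figure D4:**
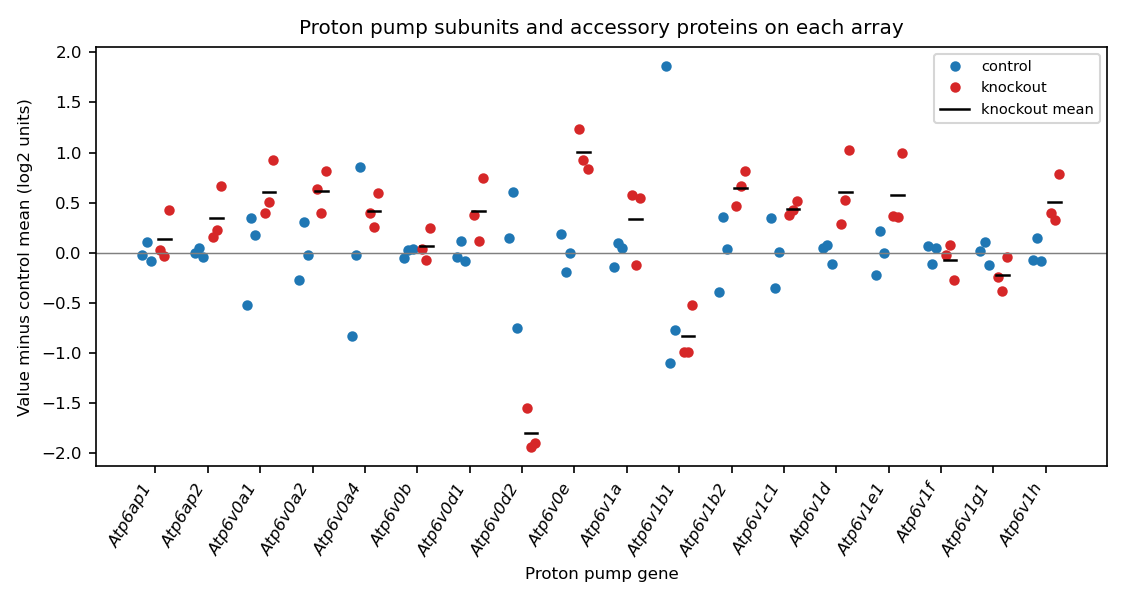
Value of 18 proton pump subunit and accessory genes on each array minus the gene's control mean (log2 units), with controls in blue, knockouts in red and the knockout mean as a bar. Most knockout means lie above 0, with Atp6v0e at 1.00 the highest, and Atp6v0d2 lies at -1.80.

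The enzymes and carriers that handle sugar chains and lipids had differences from -0.18 to 0.34 in all 6 members, with a median of 0.13. Neu1, the lysosomal sialidase, differed by 0.34, and Npc2, the soluble cholesterol carrier, by 0.34. Its membrane partner Npc1 differed by -0.18, with all knockouts below all controls and an adjusted p of 0.733. Psap, the precursor of the saposins, differed by 0.21, Hexa, a hexosaminidase subunit, by 0.06 and Gla, the galactosidase of glycolipids, by -0.11. Ctns, which exports cystine from the lysosome, differed by 0.19 (95% interval -0.25 to 0.64). Hexa read 9.85 in control 3 against 10.70 and 10.71 in controls 1 and 2, and its difference was -0.23 without that array.

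No gene of the further lists passed the threshold, although a larger share of them than of all probe sets had a low unadjusted p. Besides lysosomal genes, these lists hold genes of thyroglobulin uptake and hormone release, other aspartic proteases and protease inhibitors. Over all 8 further lists, 119 of 133 genes were measured apart from the members, and none passed the threshold (limma), with 19 higher and 7 lower at an unadjusted p under 0.05 and a median difference of 0.04. These are 21.8% of the 119, against 12.7% of all probe sets, and the groups did not overlap for 27.7%, 24 above and 9 below, against 18.1% of all probe sets. By list, the share with an unadjusted p under 0.05 ran from 4.55% of membrane and trafficking genes to 46.7% of the further proton pump genes. Of 24 measured lysosomal enzymes 14 were positive and 10 negative, led by Aga, which cleaves sugar chains from asparagine (-1.04, adjusted p = 0.151), and Ppt1, which removes palmitate from proteins (0.77, adjusted p = 0.174). Galns, a sulfatase of the same list named after its values were seen, read 9.31, 8.78 and 7.10 across controls and 10.11, 9.96 and 10.18 across knockouts. Its difference was 1.69 (adjusted p = 0.184), and 1.04 without control 3, the lowest array for Napsa too. Of 22 membrane and trafficking genes 9 were positive, 12 negative and 1 at 0, led by Laptm4b (0.91, adjusted p = 0.165) and Gnptab, which starts the mannose 6-phosphate tag of lysosomal enzymes (0.57, adjusted p = 0.448). Of 14 lysosomal transporters 6 were positive and 8 negative, led by the nucleoside transporter Slc29a3 (0.87, adjusted p = 0.095) and the amino acid transporter Slc36a1 (0.40, adjusted p = 0.377).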

How the data were processed

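Per the submitters' processing notes, the authors made the deposited log2 values with RMA in Affymetrix Expression Console. RMA ordinarily corrects background, equalises arrays and summarises probes. No source used here gives its settings. Probe sets were named through the platform annotation and RefSeq (GRCm38.p6). Of 22206, 19572 had 1 symbol. The brightest probe set by mean was to stand for a gene, and each member had 1.

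All probe sets were fitted with limma 3.58.1 in R 4.3.3 (lmFit, eBayes, two-sided, Benjamini-Hochberg over all probe sets, threshold 0.05). Intervals are limma's at 95%. The fit was tested on simulated data. Tables and figures used Python 3.11.15 and matplotlib 3.10.9. Summed linear levels add 2 to the power of each log2 value.

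Members and lists were chosen with earlier results of these data known. Every member is named. Of each further list, the 2 genes with the smallest p are named. Alternatives were other normalization, variance models, filters, thresholds, a replicate block, a Y-linked covariate and leaving out arrays. Labels do not tie replicate numbers across groups, and their deviations correlated at -0.009, 0.076 and 0.017, so the arrays were not treated as pairs. Coordinates are RefSeq's.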

Additional observations from a re-analysis of the deposited data

How the results depend on the processing

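Leaving out 1 array gave 2 to 43 probe sets past the threshold in place of 75, and 0 or 1 members, and put the Napsa difference between 3.32 and 4.30. The count of probe sets was 118 with a robust variance trend, 260 at an adjusted p of 0.1 and 1366 of all 22206 at 0.25. At 0.25, 3 of the 38 members passed, Napsa upward and Asgr1 and Ctsz downward. In fits added after the data were seen, 6 probe sets and 0 members passed without both arrays lacking Y-linked signal (Napsa 4.42), and 2 probe sets and 0 members with the parathyroid genes as a covariate (Napsa 4.09). With the replicate number as a block, 63 probe sets and 1 member passed, and 3 of the 6 arrays correlated best with their own number. The median over members stayed between 0.00 and 0.11. It was 0.03 after renewed quantile normalization and 0.10 after median centring. No member other than Napsa passed in any fit at 0.05.

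Signs turned mostly for members near 0, but also for Ctss (-0.24 with all arrays) and Atp6v1a (0.33 with all arrays). Lamp2 was -0.02 after renewed quantile normalization and Dpp4 0.02 after median centring. Without both arrays lacking Y-linked signal Lrp2 was -0.02, Ctss 0.02, Ctse -0.04, Ctsa -0.07 and Cst3 0.05, and with the parathyroid covariate Tpp1 was 0.10 and Atp6v1a -0.04. Leaving out 1 array gave ranges of -0.29 to 0.54 for Lrp2, -0.01 to 0.13 for Ctse, -0.02 to 0.32 for Ctsa, -0.22 to 0.08 for Ctsl, -0.29 to 0.21 for Dpp7, -0.20 to 0.07 for Tpp1, -0.30 to 0.06 for Gla, -0.24 to 0.25 for Dpp4, -0.05 to 0.08 for Lamp1, -0.23 to 0.21 for Hexa, -0.02 to 0.31 for Ctsh, -0.01 to 0.10 for Lamp2, -0.57 to 0.23 for Ctss and -0.32 to 0.05 for Cst3. The cause of these changes was not tested.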
